A study of Mus musculus with 18 samples.

Results

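The genes described here are 9 genes of retinoid (vitamin A) metabolism, namely Rbp4, Lrat, Retsat, Adh1, Rdh11, Rdh16, Aldh1a1, Aldh1a7 and Cyp26a1, found by symbol among the 25266 genes listed for each liver and called the members below. They were measured by RNA sequencing in the livers of 18 male C57BL/6 mice. The control mice, FF, carried Ppp6r3 fl/fl, that is, loxP sites in both copies of the gene for SAPS3, a regulatory subunit of protein phosphatase 6, and had no Cre. The LKO mice carried the same floxed gene together with Alb-Cre, a Cre recombinase driven by the albumin promoter. Deletion was thus directed to hepatocytes, and which liver cells kept the gene was not measured here. The diets began at 8 weeks of age and lasted 16 weeks, and fat supplied 10 kcal% of the control diet (CD) and 32.5 kcal% of the high-fat diet (HFD). On CD there were 4 mice of each genotype, and on HFD there were 5 of each. No group carried Cre without the floxed gene, so Cre itself and the loss of SAPS3 cannot be told apart.

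Vitamin A circulates as retinol bound to RBP4, which hepatocytes secrete. In the liver, retinol is esterified by LRAT and stored mainly in stellate cells, or it is oxidised in 2 steps, first to retinal by alcohol and retinol dehydrogenases and then to retinoic acid by retinal dehydrogenases. Retinoic acid binds nuclear receptors of the RAR family, which act as dimers with RXR receptors, and CYP26 enzymes break it down. RETSAT saturates one double bond of retinol and draws on the same substrate.

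Each value is an RPKM, the number of reads of a gene per kilobase of its length and per M reads, as the authors deposited it. The sequencing depth recovered from the spacing of low RPKM values was 23.4 to 37.0 M reads per mouse. All 9 genes passed the filter of a mean RPKM of at least 0.5 that left 11090 genes for testing, and the mean of every group was above that level for each. Depth behind the members ranged widely, from 7 reads of Cyp26a1 in a single LKO HFD mouse to at least 35571 reads of Rbp4 in every mouse. Ppp6r3, the targeted gene, was at 9.34 ± 1.14 RPKM (SD) in FF CD mice and 3.99 ± 0.0822 in LKO CD mice, and at 8.23 ± 0.467 in FF HFD mice and 4.6 ± 0.271 in LKO HFD mice. The genotypes did not overlap in Ppp6r3 on either diet. Hepatocyte markers dominated each library, with a summed level of 30807 to 49052 RPKM over 7 genes, against 88.4 to 172 RPKM over 12 stellate cell genes. Alb, Apoa1 and the other hepatocyte genes were detected in every mouse. In whole liver, fewer cells of a type and less RNA per cell cannot be told apart.

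The promoters of 3 members are shown because they concern the genes whose levels moved together or whose product removes retinoic acid. All 9 members matched a window in RefSeq's table of promoters (GRCm38.p6), which runs from 250 bases before each transcript start to 50 bases after it, with 12 windows for the 9 genes. The stretches below are the 120 bases before the start, read 5′ to 3′ on the strand of the gene. In Cyp26a1 (chr19:37697688-37697807, plus strand) the capitals mark a direct repeat of the nuclear receptor half-site AGTTCA with 5 bases between the copies, which lies on the opposite strand. In Aldh1a1 (chr19:20601848-20601967, plus strand) and Aldh1a7 (chr19:20727557-20727676, minus strand) they mark the longest run that the 2 windows share before the start, which was 65 bases.
Cyp26a1: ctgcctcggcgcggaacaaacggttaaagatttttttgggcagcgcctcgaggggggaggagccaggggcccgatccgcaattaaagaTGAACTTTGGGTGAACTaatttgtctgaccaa
Aldh1a1: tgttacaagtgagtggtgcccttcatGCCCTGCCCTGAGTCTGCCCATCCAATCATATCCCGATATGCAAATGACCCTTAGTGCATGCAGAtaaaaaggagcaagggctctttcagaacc
Aldh1a7: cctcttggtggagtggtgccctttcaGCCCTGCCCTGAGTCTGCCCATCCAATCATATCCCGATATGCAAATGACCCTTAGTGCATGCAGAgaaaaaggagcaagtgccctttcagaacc
A search of both strands for 2 copies of AGGTCA or AGTTCA in the same orientation, 5 bases apart, found it in 13 of 32851 promoter windows (0.0396%), and among the members only in that of Cyp26a1. Spacings of 0 to 4 bases were not found in the members' windows. The octamer ATGCAAAT, searched on both strands, was present in 570 windows (1.74%), and in both Aldh1a1 and Aldh1a7 it began at position -56 from the start. Over the whole 250 bases before the start, 65.7% of 268 aligned positions were identical between the 2 Aldh genes. These matches are descriptions of the sequence, and binding was not measured.

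Rbp4, the carrier that hepatocytes secrete, and its neighbours in storage differed little. The gene lies at chr19:38116629-38125281 (mm10, GENCODE M21). Its level was 1819 ± 114 RPKM in FF CD, 1944 ± 174 in LKO CD, 1590 ± 142 in FF HFD and 1635 ± 243 in LKO HFD mice. In each genotype the HFD mean was below the CD mean, and the ranges overlapped (1712 to 1979 against 1367 to 1726 RPKM in FF mice). The difference was -0.20 on the log2(RPKM + 1) scale in FF mice (95% interval -0.44 to 0.04) and -0.26 in LKO mice (-0.50 to -0.02), and it was not called in either (limma, Benjamini-Hochberg adjusted p = 0.243 and 0.193). The exact permutation test of FF mice alone gave p = 0.0317 for Rbp4. Between genotypes Rbp4 differed by 0.09 on CD (-0.16 to 0.35) and by 0.03 on HFD (-0.19 to 0.26).

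Lrat, the enzyme that makes retinyl esters for storage, encoded at chr3:82892579-82903973, was low in whole liver, at 3.49 ± 0.854 RPKM in FF CD, 3.86 ± 0.985 in LKO CD, 4.10 ± 0.674 in FF HFD and 3.30 ± 1.08 in LKO HFD mice. These levels rested on 240 to 765 whole reads per mouse. The 4 ranges overlapped, and no comparison called Lrat (adjusted p from 0.383 to 0.960 in the 4 pairwise limma comparisons). The lowest and highest values, 1.83 RPKM and 5.13 RPKM, were both from HFD mice. The 3 tested genes outside the pathway list with profiles most like that of Lrat over the 18 mice are given as a description. They were Phka2 (r = 0.81, and 0.81 over deviations from the group means), Reln, a stellate cell gene (0.81 and 0.82), and Fig4 (0.78 and 0.81). These genes were picked from the tested genes for their likeness, and nothing was tested on them.

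Retsat, the retinol saturase, had its lowest levels in FF CD mice. The gene lies at chr6:72598475-72608425. The values were 82.8, 90.9, 76.2 and 71.1 RPKM in FF CD mice and 198, 231, 121, 179.7 and 146 RPKM in FF HFD mice. In LKO mice they were 129, 162, 108 and 178 RPKM on CD, and 143, 133, 184, 220.4 and 109 RPKM on HFD. Every FF CD mouse was thus below every mouse of the other groups, while the other 3 groups overlapped one another. Retsat was 2.18 times higher on HFD than on CD in FF mice by group means, with a difference of 1.09 ± 0.205 (SE) on the log2 scale (limma, adjusted p = 0.00133). In LKO mice the difference between the diets was 0.11 (95% interval -0.32 to 0.55). On CD, Retsat was 1.79 times higher in LKO than in FF mice by group means, and the groups did not overlap, as was the case for 5.07% of the tested genes in that comparison. The fitted difference of 0.82 (0.36 to 1.27) was not called (adjusted p = 0.156), and the exact permutation test gave p = 0.0286, the smallest that 4 mice against 4 can give. Both of these comparisons rest on the same FF CD mice.

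Adh1 encodes a cytosolic alcohol dehydrogenase that is abundant in hepatocytes and oxidises retinol as well as ethanol. The gene lies at chr3:138260991-138290698. Its level was 1154 ± 119 RPKM in FF CD, 1317 ± 123 in LKO CD, 1132 ± 163 in FF HFD and 1057 ± 163 in LKO HFD mice. The ranges of the groups overlapped. In LKO mice HFD differed from CD by -0.33 (95% interval -0.60 to -0.05), which was not called (adjusted p = 0.151, limma). In FF mice the difference was -0.03 (-0.31 to 0.24).

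Rdh11, a retinal reductase and retinol dehydrogenase of the endoplasmic reticulum encoded at chr12:79174337-79192293, varied more within groups than between them. It was at 23.6 ± 8.06 RPKM in FF CD, 29.5 ± 12.4 in LKO CD, 19.9 ± 4.13 in FF HFD and 25.3 ± 7.99 in LKO HFD mice. The lowest value of the 18, 11.9 RPKM, and the values of 31.9 and 30.7 RPKM came from the same LKO HFD group. No comparison called Rdh11, and its interval on HFD between genotypes ran from -0.31 to 0.88 on the log2 scale, so a fold of the size called here is within it.

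Rdh16 encodes a microsomal retinol dehydrogenase that also oxidises steroids, and it was the member that differed most between the genotypes on HFD. The gene lies at chr10:127801152-127846565. In FF mice the values were 30.2, 27.8, 12.4 and 21.4 RPKM on CD and 40.7, 57.5, 41.9, 52.3 and 59.2 RPKM on HFD. In LKO mice they were 35.6, 47.8, 24.9 and 42.2 RPKM on CD and 33.4, 28.7, 24.0, 22.5 and 19.5 RPKM on HFD. Every FF HFD mouse was above every FF CD mouse and above every LKO HFD mouse. In order of the means, FF CD (23.0 ± 7.95 RPKM) came first, then LKO HFD (25.6 ± 5.46), LKO CD (37.6 ± 9.85) and FF HFD (50.3 ± 8.62), and each group overlapped its neighbours in this order. On HFD, Rdh16 was 0.509 times as high in LKO as in FF mice. The fitted difference was -0.95 ± 0.215 (SE) on the log2 scale (adjusted p = 0.0185, limma), and the exact permutation test gave p = 0.00794, the smallest that 5 mice against 5 can give. The call was lost without FF HFD replicate 2 (-0.90, adjusted p = 0.0558), FF HFD replicate 5 (-0.89, adjusted p = 0.0513) or LKO HFD replicate 3 (-0.94, adjusted p = 0.0503).

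The diets had a different effect on Rdh16 in each genotype. In FF mice it rose by 1.15 ± 0.228 on the log2 scale with HFD (adjusted p = 0.00183), 2.19 times by group means. In LKO mice the HFD mean was 0.681 times the CD mean, and the difference of -0.52 (95% interval -1.0 to -0.04) was not called (adjusted p = 0.186). The difference between these responses was -1.67 ± 0.322 (adjusted p = 0.00717). The call held in each of the 18 fits that left out 1 mouse, with fitted values from -1.85 to -1.42. On CD the 2 genotypes overlapped, with a difference of 0.72 (0.22 to 1.23, adjusted p = 0.345).

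Rdh16 lies in a cluster of similar genes on chromosome 10, so reads could be divided among copies. Its coding sequence shared 96.3% of positions with that of Rdh9, 93.8% with Rdh19, 93.1% with Rdh1, 91.5% with Rdh16f2 and 86.4% with Rdh7 in GENCODE M21 transcripts. Of the stretches of 50 bases in the Rdh16 coding sequence, 35.1% were also found whole in Rdh9, and none in Rdh16f2. Rdh19 was listed at values down to 1.46e-42 RPKM, far below that of 1 read, so reads had been apportioned among copies in the deposited values. Rdh9, the closest copy, was at 25.7 ± 7.75, 39.9 ± 10.9, 27.3 ± 8.61 and 30.5 ± 10.9 RPKM in FF CD, LKO CD, FF HFD and LKO HFD mice. It was called in no comparison, and on HFD it differed between genotypes by 0.13 (95% interval -0.41 to 0.66 as fitted by limma). Rdh16f2 differed by 0.28 (-0.17 to 0.74) and Rdh7, the most abundant of them at 295 to 569 RPKM, by 0.03 (-0.30 to 0.36). How much of the Rdh16 signal came from reads shared with Rdh9 was not tested.

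**Figure D1:**
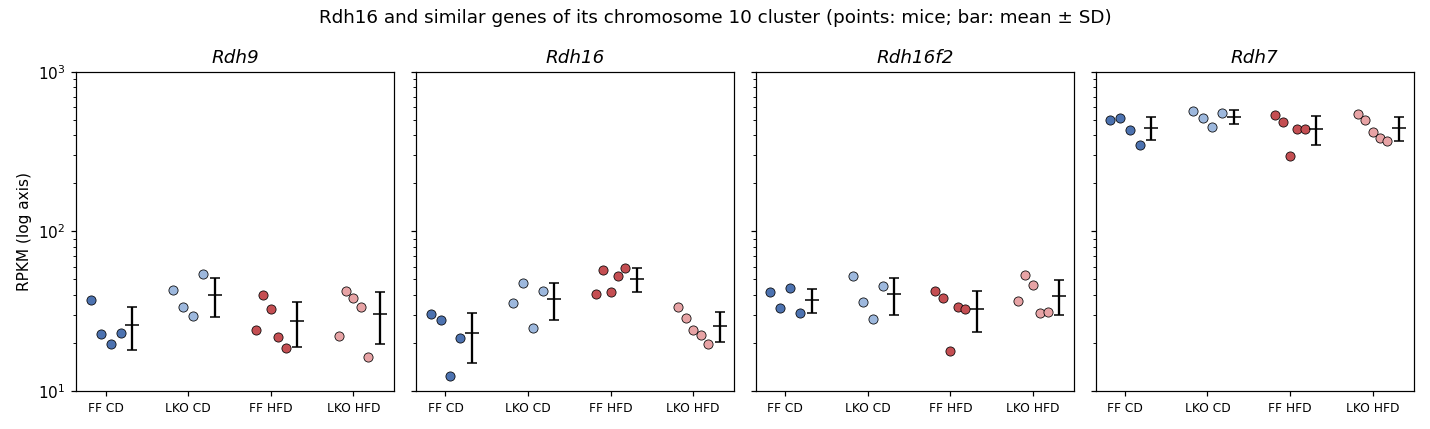
RPKM on a log axis for Rdh16 and 3 similar genes of its cluster, with 1 point for each mouse and the mean ± SD of each group beside the points. The 5 FF HFD mice lie above the 5 LKO HFD mice for Rdh16, while the groups overlap for Rdh9, Rdh16f2 and Rdh7.

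Aldh1a1, a cytosolic retinal dehydrogenase that makes retinoic acid, responded to the diet in FF mice and differed in that response between the genotypes. The gene lies at chr19:20492715-20643465. In FF mice the values were 305, 260.4, 138 and 206 RPKM on CD and 618, 585, 529, 434 and 449.6 RPKM on HFD. In LKO mice they were 351, 308, 256 and 294 RPKM on CD and 387, 364, 311, 289 and 353 RPKM on HFD. The 5 FF HFD mice were above all others. HFD raised Aldh1a1 in FF mice 2.30 times by group means, or by 1.24 ± 0.182 (SE) on the log2 scale (limma, adjusted p = 0.000158). In LKO mice the difference was 0.17 (95% interval -0.21 to 0.56). The difference between the responses was -1.07 ± 0.257 (adjusted p = 0.0299), and leaving out 1 mouse at a time kept this call in 10 of 18 fits, with the adjusted p reaching 0.0711 at most. It was also lost when no filter was used (adjusted p = 0.0693, limma). The 8 mice on which it depended were FF CD replicates 3 and 4, LKO CD replicates 1, 2 and 4, FF HFD replicate 2 and LKO HFD replicates 3 and 4.

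On HFD alone, Aldh1a1 was 0.652 times as high in LKO as in FF mice, and the groups did not overlap. The difference of -0.61 (95% interval -0.97 to -0.25) fell just outside the call (adjusted p = 0.0511, limma), and the exact permutation test gave p = 0.00794. Aldh1a1 was called in this comparison when the RPKM were rescaled to the same sum (-0.67, adjusted p = 0.0183) or quantile normalized (-0.61, adjusted p = 0.0248), when the filter was a mean RPKM of 1 (adjusted p = 0.0492), when the fit held only the 2 groups (adjusted p = 0.0338), and without FF CD replicate 1 (adjusted p = 0.0374), FF CD replicate 3 (adjusted p = 0.0161) or LKO HFD replicate 1 (adjusted p = 0.0412). Only these 3 of the 18 fits without 1 mouse gained the call, and the adjusted p of the rest reached 0.127 (limma). Of 8 other settings, 3 left it uncalled, with an adjusted p of up to 0.0924.

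Aldh1a7 is a rodent gene close to Aldh1a1, and its product oxidises other aldehydes better than retinal. It lies 49.5 kb from Aldh1a1 on the opposite strand, at chr19:20692953-20727562. In FF mice the values were 74.5, 83.1, 34.3 and 60.9 RPKM on CD and 130.1, 131, 114, 121 and 132 RPKM on HFD. In LKO mice they were 94.5, 107, 55.3 and 89.4 RPKM on CD and 114, 93.8, 88.1, 68.2 and 105 RPKM on HFD. The FF HFD mice lay within a narrow band above all others, with the highest LKO HFD mouse at 114.2 RPKM just under the lowest of them at 114.5. HFD raised Aldh1a7 in FF mice by 1.05 ± 0.219 (SE) on the log2 scale (adjusted p = 0.00264, limma), 1.99 times by group means. In LKO mice the difference was 0.13 (95% interval -0.33 to 0.59). The difference between the responses was -0.92 (-1.57 to -0.27) and was not called (adjusted p = 0.130). On HFD the genotypes differed by -0.44 (-0.87 to -0.00373), again without a call (adjusted p = 0.255, limma). The unadjusted exact permutation p of 0.00794 only restates that these groups did not overlap.

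Deviations of the 2 Aldh genes from their group means were correlated over the 18 mice by Pearson's r, but not by rank after adjustment. The coding sequences of Aldh1a1 and Aldh1a7 were identical at 91.7% of aligned positions, and 10.4% of the stretches of 50 bases in Aldh1a1 occurred whole in Aldh1a7. Reads could thus be shared or divided between these genes, and how much this added to their correlation was not tested. Of the 36 pairs of members, 3 had a Pearson correlation of deviations from group means with an adjusted p under 0.05 (permutation test of mice within groups, Benjamini-Hochberg over the 36 pairs). These were Rdh11 with Aldh1a7 (r = 0.789, p = 0.00054, adjusted p = 0.0194; rho = 0.682, p = 0.00951, adjusted p = 0.114), Aldh1a1 with Aldh1a7 (r = 0.805, p = 0.00113, adjusted p = 0.0203; rho = 0.734, p = 0.00238, adjusted p = 0.0569) and Rdh16 with Aldh1a7 (r = 0.819, p = 0.00321, adjusted p = 0.0385; rho = 0.742, p = 0.00316, adjusted p = 0.0569), all by permutation over the 18 mice. No pair passed by rank. Without the 2 mice farthest from the median of the first gene, r was 0.672, 0.676 and 0.605. The ratio of Aldh1a1 to Aldh1a7 was 3.66 ± 0.473 in FF CD, 3.63 ± 0.756 in LKO CD, 4.16 ± 0.626 in FF HFD and 3.68 ± 0.374 in LKO HFD mice, and the ranges overlapped. All values of a mouse share 1 library and its depth.

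**Figure D2:**
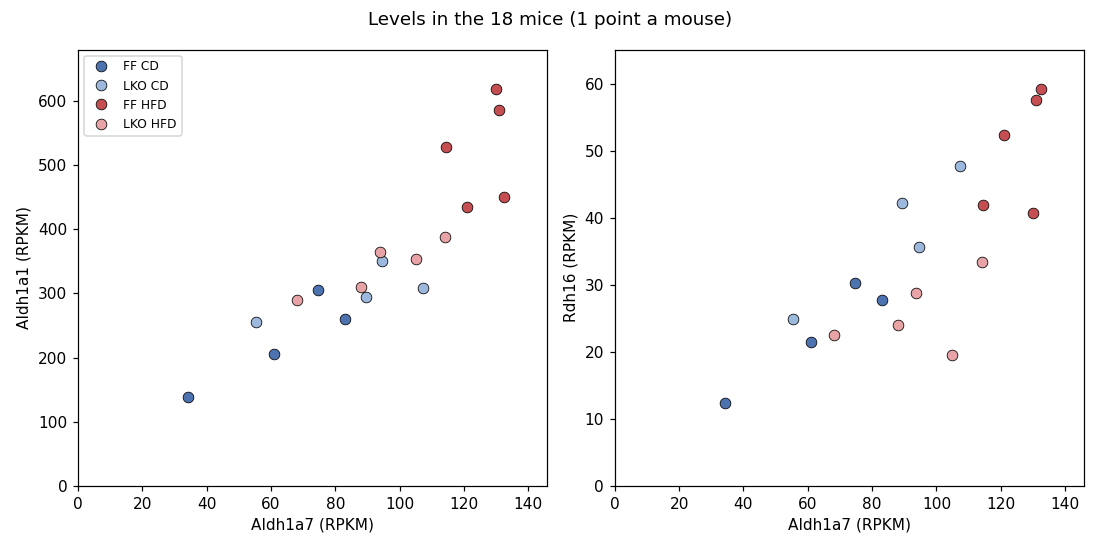
RPKM of Aldh1a1 (left) and Rdh16 (right) against RPKM of Aldh1a7, with 1 point for each of the 18 mice coloured by group. The FF HFD mice lie at the upper right in both plots, at 114 RPKM of Aldh1a7 or more, and the lowest point in both is an FF CD mouse.

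Cyp26a1, the hydroxylase that breaks down retinoic acid and is itself induced by it, was the member with the fewest reads. The gene lies at chr19:37697798-37701536. The values were 5.77, 1.64, 2.59 and 3.19 RPKM in FF CD mice and 1.69, 1.31, 0.941, 1.80 and 1.56 RPKM in FF HFD mice. In LKO mice they were 2.95, 2.37, 1.90 and 2.29 RPKM on CD and 1.47, 2.30, 1.16, 1.35 and 0.161 RPKM on HFD. The highest value, in an FF CD mouse, rested on 330 whole reads and the lowest, in an LKO HFD mouse, on 7, and the diets overlapped in each genotype. Cyp26a1 fell by 0.73 ± 0.253 (SE) on the log2(RPKM + 1) scale with HFD in FF mice (adjusted p = 0.0480, limma), and the HFD mean was 0.443 times the CD mean. The call was lost in 15 of 18 fits without 1 mouse, and in the fit without FF CD replicate 1 the difference was -0.48 (adjusted p = 0.177). With a pseudocount of 0.1 it was -1.01 (adjusted p = 0.130). In LKO mice the ratio was 0.543 and the difference -0.63 (95% interval -1.16 to -0.10, adjusted p = 0.151), and the 2 responses differed by 0.10 (-0.65 to 0.85). The exact permutation test gave p = 0.0476 in each genotype.

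**Figure D3:**
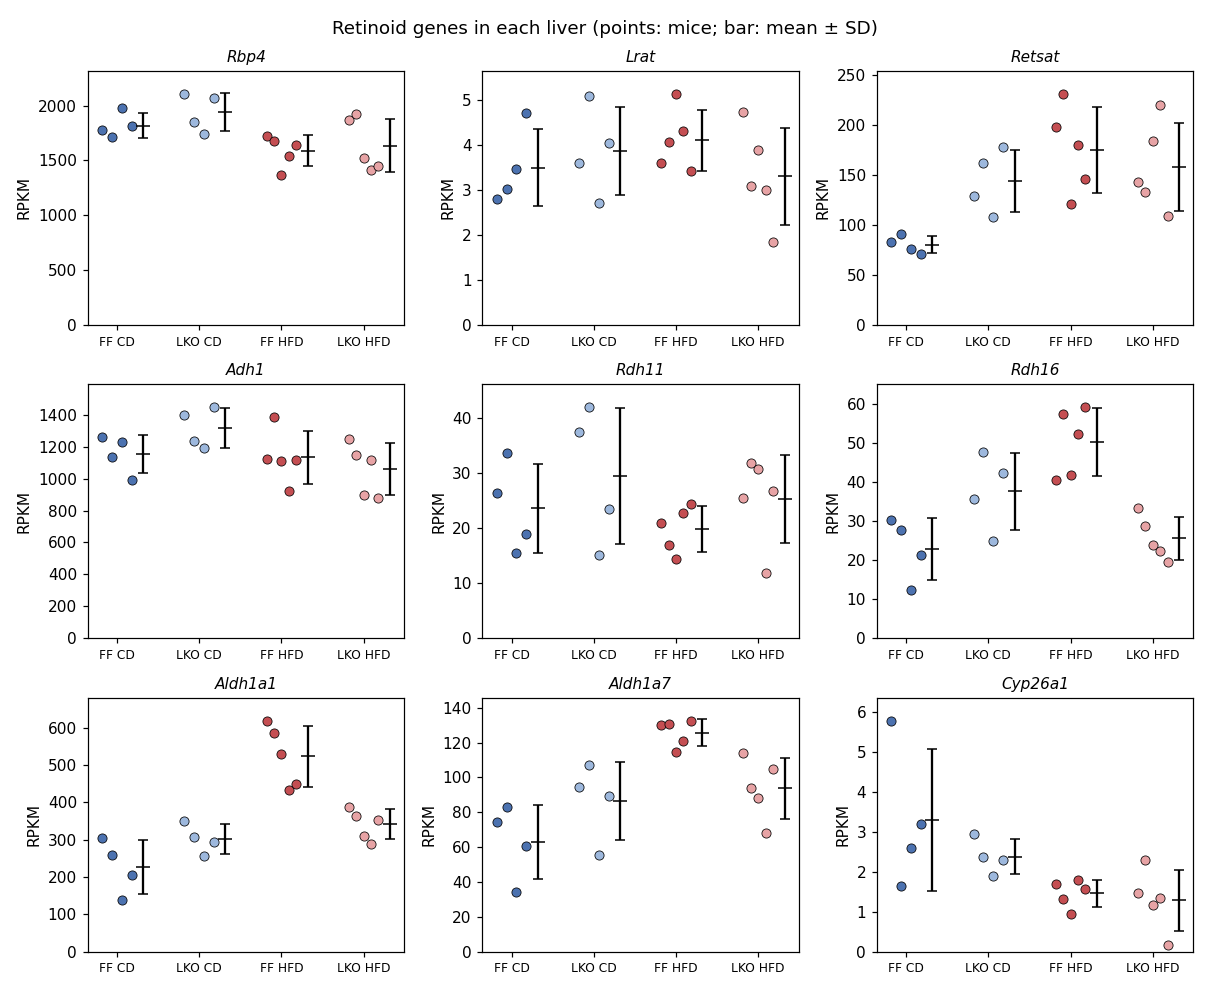
RPKM of the 9 members by group, with 1 point for each mouse and the mean ± SD (n = 4 on CD, n = 5 on HFD for each genotype) beside the points. For Retsat the FF CD mice lie below all others, for Rdh16, Aldh1a1 and Aldh1a7 the FF HFD mice lie above both FF CD and LKO HFD mice, and for Lrat, Adh1 and Rdh11 the groups overlap, while for Rbp4 the LKO CD mice lie above the FF HFD mice and the other pairs of groups overlap.

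Taken by comparison, HFD against CD in FF mice called 4 members higher (Retsat, Rdh16, Aldh1a1 and Aldh1a7), where 5.11% of all tested genes were called higher. It called 1 member lower (Cyp26a1), where 1.49% of all genes were. The median difference of the 9 members was 0.19, and that of all tested genes was 0.07. For the 4 genes called higher the groups did not overlap, as held for 18.3% of all tested genes. Each therefore had an unadjusted exact permutation p of 0.0159, the smallest that 4 mice against 5 can give.

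The same diets in LKO mice called 0 members (limma), where 1.27% of all genes were called, and 4 members had an unadjusted p under 0.05, all with lower values on HFD (Rbp4, Rdh16, Adh1 and Cyp26a1). Such a p, in either direction, was found for 2475 of the 11090 tested genes. The 141 calls over all genes behind the 1.27% became 17 without LKO CD 3, 20 without LKO HFD 3 and 30 without LKO CD 1. By voom on recovered reads, a method added after the data were seen, 0 members were called too. No member separated the LKO groups without overlap, against 9.04% of all genes. On CD, LKO against FF called 0 members (limma; 0.225% of all genes), with 3 at an unadjusted p under 0.05 (Retsat, Rdh16 and Aldh1a1) against 851 of all 11090, and voom also called 0. Of the 9 members 8 had a fitted difference above 0 in that comparison, as had 6844 of the 11090 genes, with a median of 0.26 against 0.03 for all tested genes.

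On HFD, LKO against FF called 1 member lower (Rdh16), where 1.17% of all genes were called lower. Rdh16, Aldh1a1 and Aldh1a7 did not overlap between the genotypes, as was so for 4.67% of all genes. The difference between the genotypes in their response called 2 members lower (Rdh16 and Aldh1a1), where 1.5% of all genes were called lower. Retsat differed in response by -0.97 (95% interval -1.58 to -0.36) without a call (adjusted p = 0.0841, limma). It was called after the RPKM were rescaled to the same sum (-1.04, adjusted p = 0.0253) and without LKO CD replicate 3 (-1.10, adjusted p = 0.0475), FF HFD replicate 3 (-1.10, adjusted p = 0.0436) or LKO HFD replicate 4 (-1.10, adjusted p = 0.0422). Only these 3 of the 18 fits without 1 mouse gained the call, and the adjusted p of the rest reached 0.185 (limma). Of 7 other settings, 6 left it uncalled, with an adjusted p of up to 0.161.

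**Figure D4:**
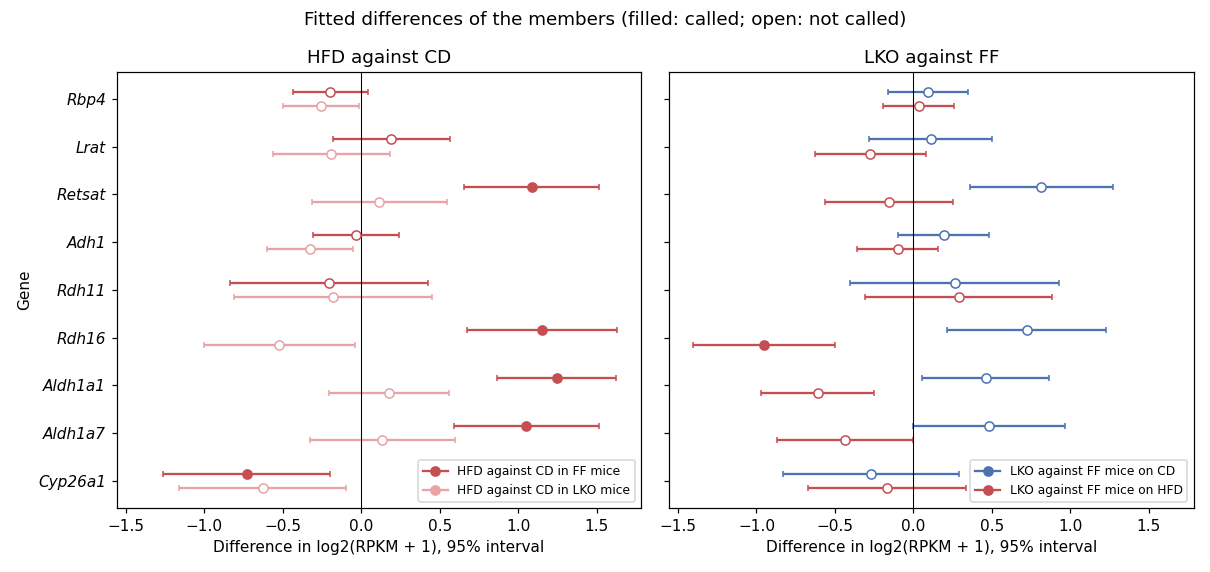
Fitted differences in log2(RPKM + 1) with 95% intervals for the 9 members, for the diets in each genotype (left) and for the genotypes on each diet (right), where filled points are called and open points are not. Retsat, Rdh16, Aldh1a1 and Aldh1a7 lie between 1.05 and 1.24 for HFD against CD in FF mice, and Rdh16 is the called gene at -0.95 for LKO against FF on HFD.

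Among 53 other genes listed for the retinoid pathway, 52 were in the tables and 38 passed the filter. HFD called 5 of the 38 higher and 1 lower in FF mice, where 5.11% of all tested genes were called higher and 1.49% lower. In retinal oxidation Aox1, an aldehyde oxidase, rose by 1.18 ± 0.176 (SE) on the log2 scale, from 7.51 ± 1.14 to 18.4 ± 3.58 RPKM (adjusted p = 0.000194, limma). Its neighbour Aox3 was lower on HFD in FF mice by -0.56 (95% interval -0.87 to -0.26), under the fold needed for a call. Aldh8a1, the most abundant of the other retinal dehydrogenases, differed by -0.02.

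Cyp2c39, a cytochrome P450 that has been linked to retinoic acid hydroxylation, had the largest called rise of these genes. Its level was 0.449 ± 0.243 RPKM in FF CD, 0.964 ± 0.230 in LKO CD, 3.08 ± 0.842 in FF HFD and 0.896 ± 0.283 in LKO HFD mice. The 5 FF HFD mice, from 2.05 to 4.25 RPKM, lay above all others. HFD raised it by 1.49 ± 0.150 in FF mice (adjusted p = 4.91e-06, limma), LKO mice on HFD were lower than FF mice by -1.09 ± 0.141 (adjusted p = 0.000201), and the responses differed by -1.54 ± 0.212 (adjusted p = 0.000475). All 3 calls held in each of the 18 fits that left out 1 mouse. Cyp2c39 belongs to a large P450 family on chromosome 19 with similar copies, so its reads are uncertain.

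Of the genes that form or hydrolyse retinyl esters, Ces1g, a carboxylesterase, rose in FF mice by 0.999 ± 0.204 with HFD (adjusted p = 0.00228, limma) from 36.8 ± 8.91 to 73.4 ± 9.02 RPKM. Its response differed between the genotypes by -1.19 ± 0.288 (adjusted p = 0.0312), a call that 9 of 18 fits without 1 mouse lost. Ces1d, the most abundant of them, had a like set of means, 237 ± 40.8 and 371 ± 120 RPKM in FF mice and 358 ± 64.3 and 247 ± 86.1 RPKM in LKO mice on CD and HFD, and was called in no comparison. Lipe, the hormone-sensitive lipase, rose with HFD in both genotypes, by 0.71 ± 0.128 in FF mice (adjusted p = 0.000971) and 0.65 ± 0.128 in LKO mice (adjusted p = 0.0181), the latter lost in 3 of 18 fits without 1 mouse (LKO CD 1, LKO CD 3 or LKO HFD 3). Pnpla3, a lipid droplet hydrolase that acts on retinyl esters, fell by 1.75 in FF mice (adjusted p = 0.00642) and by 1.63 in LKO mice (adjusted p = 0.0398), the latter lost in 7 of 18 such fits (without LKO CD 1, 2 or 3 or LKO HFD 2, 3, 4 or 5). The responses of Lipe and Pnpla3 differed between genotypes by -0.05 (95% interval -0.43 to 0.33) and 0.12 (-1.12 to 1.35).

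The other roles held few calls. Rxrg, a retinoid X receptor that was low in liver, rose in FF mice by 0.74 ± 0.152 with HFD (adjusted p = 0.00254, limma), while Rxra, the most abundant receptor of the list, was at 57.5 ± 9.22, 50.7 ± 6.45, 58.1 ± 10.8 and 70.6 ± 8.40 RPKM in FF CD, LKO CD, FF HFD and LKO HFD mice and was not called. Lrp1, a receptor for chylomicron remnants, rose in LKO mice by 0.68 ± 0.189 (adjusted p = 0.0499), a call that 14 of 18 fits without 1 mouse lost. Ttr, which carries RBP4 in plasma, had a fitted difference of -0.40 with HFD in LKO mice (adjusted p = 0.0284, limma), under the fold for a call. Its responses to HFD differed between the genotypes by -0.51 (adjusted p = 0.0412, limma), also under that fold. Bco2, the more abundant carotenoid oxygenase, differed by 0.16 with HFD in FF mice. LKO against FF called 0 of the 38 genes on CD by limma, where 0.225% of all genes were called, and voom on recovered reads also called 0. Of the 38, 9 had an unadjusted limma p under 0.05, against 851 of all 11090 tested genes. On HFD, LKO against FF called Aox3 higher, by 0.61 ± 0.136 (adjusted p = 0.0171, limma), and Cyp2c39 lower. The call of Aox3 was lost without FF HFD 2, FF HFD 5 or LKO HFD 4. Of all tested genes, 0.902% were called higher and 1.17% lower in that comparison. The interaction called Aox1 (-0.94 ± 0.249, adjusted p = 0.0476, limma), Ces1g and Cyp2c39 lower, where 1.5% of all genes were called lower. The call of Aox1 was lost in 13 of 18 fits without 1 mouse.

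**Figure D5:**
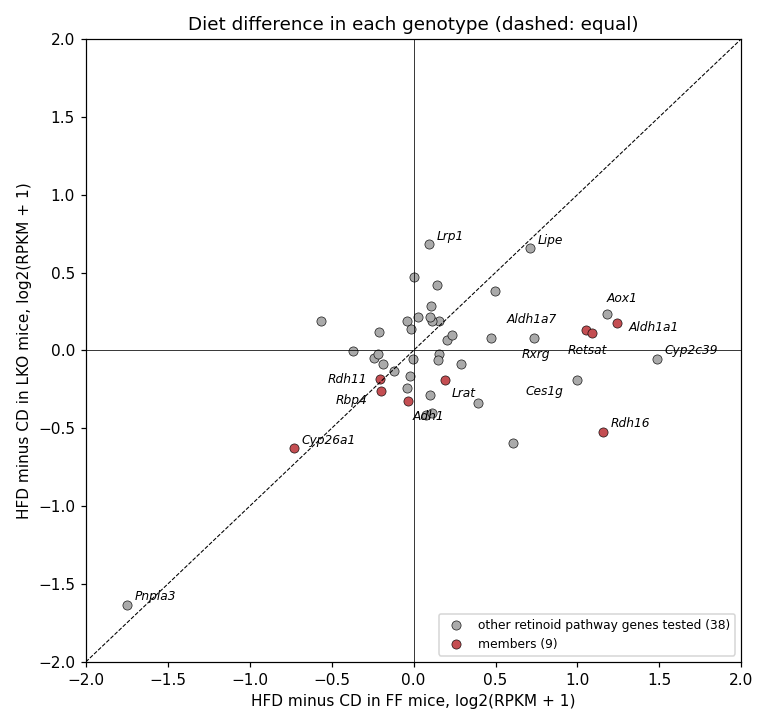
Difference between HFD and CD in log2(RPKM + 1) in FF mice (horizontal axis) and in LKO mice (vertical axis), with the 9 members in red and the 38 other pathway genes tested in grey, and a dashed line where both are equal. Pnpla3, Lipe and Cyp26a1 lie near the dashed line, and Rdh16 (1.15 and -0.52) and Cyp2c39 (1.49 and -0.06) lie farthest below it on the right.

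Genes outside the pathway list with the profiles most like those of the called members over the 18 mice are given as a description, by Pearson's r on log2(RPKM + 1), with r over deviations from group means after it. For Rdh16 they included Pgrmc2 (0.93 and 0.85) and Perp (0.90 and 0.74). For Retsat they were Cmtm4 (0.94 and 0.91), Nmt2 (0.92 and 0.83) and Acadm (0.92 and 0.83). For Aldh1a1 they included Tcn2 (0.93 and 0.82) and Slc48a1 (0.93 and 0.77). These genes were chosen from 11090 for their likeness, so the high values are what the choice gives. For Aldh1a7 they were Pctp (0.93 and 0.85), S100a10 (0.93 and 0.86) and Ormdl3 (0.93 and 0.86). For Cyp26a1 they were Lrrc45 (0.82 and 0.74), Pigx (0.78 and 0.53) and Polr3g (0.78 and 0.56).

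Markers of hepatocytes and of other liver cells moved with some of these comparisons. Over all tested genes, HFD called 5.11% higher and 1.49% lower in FF mice, and 0.965% higher in LKO mice. LKO against FF on HFD called 0.902% higher and 1.17% lower. Of the 7 hepatocyte genes, Apoa1 (-0.72) and Cps1 (-1.24) were called lower with HFD in FF mice, where the summed level was 30807 to 38993 RPKM on CD and 34179 to 44491 RPKM on HFD. Apoa1 was called higher in LKO than in FF mice on HFD, by 0.64, with a summed hepatocyte level of 36225 to 43615 RPKM in LKO HFD mice, and in the other 3 comparisons none of the 7 was called. Of 6 sinusoidal endothelial genes, 4 were called higher with HFD in FF mice, where the summed level was 13.7 to 29.4 RPKM on CD and 36.1 to 57.4 RPKM on HFD, and none was called in LKO mice (11 to 31.5 and 27.6 to 39.2 RPKM). Of the 11 stellate cell genes tested, Col1a1 and Col3a1 were called higher with HFD in FF mice and lower in LKO than in FF mice on HFD, by -1.15 and -1.24. Both were also called lower for the difference between responses (-1.51 and -1.66, adjusted p = 0.0364 and 0.0263, limma), where 1.5% of all tested genes were. All 11 lay above 0 with HFD in FF mice, as did 7004 of the 11090 genes. All 11 lay below 0 for the difference between responses, as did 5685 of the 11090. The summed stellate level was 90.8 to 142, 108 to 148, 123 to 168 and 88.4 to 172 RPKM in FF CD, LKO CD, FF HFD and LKO HFD mice. Of 6 Kupffer cell genes, 2 were called higher with HFD in FF mice (summed level 40.2 to 58.1 RPKM on CD and 48.6 to 91.9 on HFD) and 1 in LKO mice (33.5 to 54.6 and 46.8 to 91.4). The adipocyte genes Adipoq, Plin1 and Lep were at 0 in all CD mice, and Adipoq reached 0.76 RPKM in 1 FF HFD mouse. Cfd, the only adipocyte gene tested, was above 0 in every mouse. It ranged from 0.046 to 0.539 RPKM on CD and from 0.043 to 2.4 RPKM on HFD. With HFD, Cfd differed by 0.757 in FF mice (adjusted p = 0.0801, limma) and by 0.535 in LKO mice (adjusted p = 0.305, limma), without a call. The part of these cells in the levels of the members was not tested.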

How the data were processed

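The authors aligned the reads with HISAT2 2.0.4 to mm10 and used Partek, per the labels and the study's reporting summary. They deposited 1 table of RPKM per mouse. The gene annotation, the counting rule and the strandedness are not given in the sources used here, and the labels' extract protocol also names a small RNA kit. RPKM were used as deposited, without further scaling. The 9 members and all lists were chosen with earlier results of these data known. Depth and whole reads were recovered from the steps of low RPKM values, with reads taken as whole within 0.02. Whole reads were recovered for 70.8% of the tested genes. Reads of the other genes were estimated from annotated length.

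Genes whose RPKM averaged at least 0.5 over the mice were fitted in limma 3.58.1 (R 4.3.3, trend) on log2(RPKM + 1), with 1 coefficient per group for all 18 mice, and p-values were adjusted over 11090 genes by the Benjamini-Hochberg method. A gene was called at an adjusted p under 0.05 and a fold above 1.5 in the fit, and fold changes on this scale understate those of low genes. The limma fit was tested on simulated data with known changes in LKO HFD mice, for LKO against FF on HFD alone. The other comparisons and steps were not tested in this way. Single members were compared by exact two-sided permutation (scipy 1.17.1), and these p-values were not adjusted. Mice are separate animals by the labels, with no batch named, and no 2 tables were identical. Replicate numbers were not taken as pairs, and whether they mark pairs or a shared batch was not settled.

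Named genes were the 9 members, other pathway genes called in any comparison or highest in their role, the 3 genes most like each called member (some of which are not reported here), and Ppp6r3. Rdh9, Rdh16f2, Rdh19, Rdh1 and the marker genes were added for their sequence or cell type. The genes most like Lrat and Rdh11 were named too, though no comparison called either member. Positions come from GENCODE M21 and promoters from RefSeq (GRCm38.p6). Sequences were aligned with Biopython 1.88. Alternative settings used a pseudocount of 0.1, no filter or one at a mean RPKM of 1, rescaling to the same sum, quantile normalization, only the groups compared, a replicate block, the adjusted p alone, RPKM without log in the exact test, leaving out each mouse and, chosen after seeing the data, limma voom on recovered reads.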

Additional observations from a re-analysis of the deposited data

Results flagged for a closer look

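The response to HFD differed between the genotypes for Rdh16 by -1.67 on the log2(RPKM + 1) scale and for Aldh1a1 by -1.07, each by the interaction term of the limma fit. Rdh16 had risen in FF mice and was lower on HFD in LKO mice without a call, and Aldh1a1 had risen in FF mice by 1.24 against 0.17 in LKO mice.

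One mouse stood apart from its group in 1 of the 36 sets of values formed by the 9 members and 4 groups. This was LKO HFD replicate 4, which had 11.9 RPKM of Rdh11, where the gap to the next mouse was 0.764 of the range of the group. Chance alone would flag about 1.8 of 36 such sets.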

How the results depend on the processing

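The count of members called was within 1.5 times the reported one in 9 alternative settings for HFD against CD in FF mice (4 or 5 members), in 9 in LKO mice (0) and in 9 for LKO against FF on CD (0), and leaving out each mouse gave 4 to 5, 0 and 0. For LKO against FF on HFD it was 2 instead of 1, with Aldh1a1 added, under the filter at a mean RPKM of 1, rescaling, quantile normalization, only the groups compared and the replicate block, and 0 to 2 without 1 mouse. For the difference between responses it was 1 instead of 2 without a filter, where more genes are tested, and 1 to 4 without 1 mouse. The exact tests gave 12 of 36 under 0.05 with and without the log. They were run on the members only, so no share over all genes stands beside this count.

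With the replicate block, the call of Cyp26a1 in FF mice was lost (-0.63, adjusted p = 0.0652 by limma), Aldh1a1 on HFD was called between genotypes (adjusted p = 0.0154), and Aldh1a7 was called for the difference between responses (adjusted p = 0.0454). Of 17 pairs of mice with the same number, 7 had a correlation of deviations over 0.1, and the 17 values ran from -0.105 to 0.275. Mice with different numbers were not compared in this way, so these values cannot decide whether the numbers mark pairs or a shared batch. The numbers were not taken as pairs.

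The fitted differences that changed sign were all without a call. Rbp4 between genotypes on HFD became -0.0246 (rescaled), -0.0660 (quantile) and -0.0296 to 0.0819 without 1 mouse. Adh1 with HFD in FF mice became 0.0564, 0.0900 and -0.109 to 0.0361 in the same settings. Rdh11 in the difference between responses became -0.0440 (rescaled) and -0.247 to 0.264, and with HFD in LKO mice -0.453 to 0.0585. Cyp26a1 in the difference between responses became -0.11 (pseudocount of 0.1), -0.15 (voom) and -0.15 to 0.33, and between genotypes on HFD -0.320 to 0.0570. Without 1 mouse, Lrat on CD ran from -0.00663 to 0.231, and with HFD in LKO mice Retsat ran from -0.0159 to 0.237 and Aldh1a7 from -0.0657 to 0.250. The causes were not tested.

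Over all genes, HFD called 732 in FF mice, against 1254 with a pseudocount of 0.1 and 1281 by voom, and 141 in LKO mice, against 272, 283, 47 (no filter), 87 (quantile) and 40 (only the groups compared). LKO against FF called 25 on CD, against 12 without a filter, and 230 on HFD, against 152. The difference between responses called 271, against 169 without a filter and 411 after rescaling. Without 1 mouse these counts ran from 605 to 802 for HFD in FF mice and from 17 to 237 in LKO mice (17 without LKO CD 3, 20 without LKO HFD 3, 30 without LKO CD 1, 81 without LKO CD 4 and 237 without LKO HFD 1). They ran from 11 to 45 on CD (11 without FF CD 2, 13 without LKO CD 2, 14 without LKO CD 4, 15 without FF CD 3 and 45 without LKO CD 3), from 132 to 318 on HFD (132 without FF HFD 2 and 144 without LKO HFD 3) and from 156 to 392 between responses (156 without FF CD 3, 157 without LKO CD 2, 162 without LKO CD 4 and 177 without FF HFD 2). Scaling moved the split of higher and lower genes. In FF mice it went from 567 and 165 to 748 and 143 (rescaled) or 423 and 224 (quantile). In LKO mice it went from 107 and 34 to 121 and 39 (rescaled) or 48 and 39 (quantile). On CD it went from 10 and 15 to 16 and 15 (rescaled) or 13 and 13 (quantile). On HFD it went from 100 and 130 to 83 and 167 (rescaled) or 103 and 151 (quantile). Between responses it went from 105 and 166 to 112 and 299 (rescaled) or 139 and 205 (quantile). Of the members, depth limits Cyp26a1 most, with 7 to 330 reads per mouse.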

Other observations

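Rdh11, which no comparison called, was named here after its values were seen. The 3 tested genes outside the pathway list with the profiles most like its own over the 18 mice all encode enzymes of sterol synthesis. They were Fdps (r = 0.96, and 0.97 over deviations from the group means), Nsdhl (0.93 and 0.95) and Dhcr7 (0.91 and 0.96). These values describe genes picked for their likeness, and nothing was tested on them.

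The 4 members called higher in FF mice on HFD ended at different levels in LKO mice on HFD, relative to FF mice on CD. The ratio of those means was 1.97 for Retsat, 1.5 for Aldh1a1, 1.49 for Aldh1a7 and 1.12 for Rdh16. These 2 groups differ in both diet and genotype, and the ratios were not tested.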
